A study of Mus musculus with 4 samples.

Results

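The 10 genes described here are core parts of the circadian clock: Per1, Per2, Per3, Cry1, Cry2, Arntl (also called Bmal1), Clock, Nr1d1 and Nr1d2 (the genes of REV-ERBα and REV-ERBβ), and the clock output gene Dbp. They are 10 of the 31054 features in each of the 4 matrices, and every member matched 1 feature by its symbol. They were chosen by name, with earlier results on the difference between the BPTES and DMSO libraries known, so that difference is given below as a description and not as evidence. The cells came from lungs of male C57BL/6 mice that were 19 months old at the start and received either BPTES, a small-molecule inhibitor of glutaminase, or its vehicle DMSO, for 1 month. No group was young, untreated or of another genotype, so both groups share age, strain and sex. Each group had 2 libraries. The labels do not say whether the libraries of a group came from separate mice, so p-values measure only the spread between libraries. The hour at which lungs were collected is not stated, and lungs were digested for 1 hour before 20000 CD45-negative and 9000 CD45-positive cells of the same tissue were mixed per library.

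The clock of mammalian cells is a loop of transcription. CLOCK and ARNTL bind DNA as a pair at E-box motifs and switch on the Per and Cry genes, Nr1d1, Nr1d2 and Dbp. PER and CRY proteins then repress that pair, and the REV-ERB proteins repress Arntl through RORE motifs, so that Arntl transcript is high when Nr1d1 and Dbp are low. DBP acts at D-box motifs, which the Per genes also carry. Per1 and Per2 respond in addition to glucocorticoids and other acute signals. In the lung, clocks run in airway epithelium, fibroblasts, endothelium and leukocytes, and take part in the daily timing of inflammation.

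The reference promoters show these motifs in 4 members, which is why the stretches around them are printed. Sequences are from RefSeq on GRCm38.p6 (the build also known as mm10), 5′ to 3′ on the strand of the gene, with the motif in capitals. The Per1 stretch lies at chr11:69098753-69098818 on the + strand, with its E-box CACGTG 166 bases before one of its 2 RefSeq start sites and inside the span of the GENCODE gene.
Per1: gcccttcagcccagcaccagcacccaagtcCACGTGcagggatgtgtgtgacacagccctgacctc
The Cry1 stretch lies at chr10:85185079-85185144 on the - strand, with the E-box 60 bases before the start.
Cry1: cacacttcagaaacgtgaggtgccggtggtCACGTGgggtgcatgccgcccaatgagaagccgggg
The Per3 stretch lies at chr4:151044796-151044890 on the - strand and holds 2 D-boxes that begin 47 bases apart, the first 205 bases before the start.
Per3: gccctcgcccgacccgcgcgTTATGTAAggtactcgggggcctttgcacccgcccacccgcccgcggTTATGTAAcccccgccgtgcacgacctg
The Arntl stretch lies at chr7:113207531-113207557 on the + strand, after one of the 2 RefSeq start sites, and holds a RORE.
Arntl: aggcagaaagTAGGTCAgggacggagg

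Windows from 250 bases before to 50 bases after the start were searched on both strands, and 9 of the 10 members had a window. The E-box searched was CACGTG. The RORE searched was TAGGTCA. The D-box searched was either TTATGTAA or TTACGTAA. The E-box was in 2 of these 9 members against 8.09% of 27025 genes, the RORE in 1 against 2.97%, and a D-box in 1 against 1.23%. No match overlapped one of another motif. A match is a string in the reference window, and other letters or places were not searched.

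The genes lie on 8 chromosomes. In the GENCODE annotation of the same assembly, Per2 (ENSMUSG00000055866) spans chr1:91415982-91459324, Cry2 (ENSMUSG00000068742) chr2:92403646-92434043, Per3 (ENSMUSG00000028957) chr4:151003652-151044665 and Clock (ENSMUSG00000029238) chr5:76209868-76304792. Dbp (ENSMUSG00000059824) at chr7:45705088-45710203 and Arntl (ENSMUSG00000055116) at chr7:113207465-113314126 share chromosome 7. Cry1 (ENSMUSG00000020038) spans chr10:85131700-85185064, Per1 (ENSMUSG00000020893) chr11:69095217-69109960, Nr1d1 (ENSMUSG00000020889) chr11:98767932-98775333 and Nr1d2 (ENSMUSG00000021775) chr14:18204054-18239127. Nr1d1 overlaps Thra and Dbp overlaps Sphk2, each on the opposite strand, and Per3 overlaps Camta1 on the same strand. How reads in the shared bases were counted was not examined.

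After filtering, 14407 and 18860 cells remained in the DMSO libraries and 15142 and 15486 in the BPTES libraries, with medians of 13888 to 15740 UMIs per cell. Between 0.456% and 0.680% of the barcodes of the smaller library were shared between any pair of libraries. Of 47 clusters, 9 stayed unnamed (8162 of 63895 cells), and names of the others end in "-like" because they rest on marker RNA alone. Levels are described in 22 classes with at least 20 cells in each library, and BPTES was compared with DMSO in the 12 largest. Counts were summed over the cells of a class in a library and are given as CPM, the gene's counts scaled by the total of that sum. A lower level can mean fewer expressing cells or less RNA per cell, and the sums do not tell these apart. Sums over all cells of a library also move with the mix of classes. B-like cells made up 9.69% and 8.54% of cells with DMSO and 4.76% and 4.07% with BPTES. For AT2-like cells this was 0.83% and 1.33% against 2.65% and 2.65%.

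Each clock gene had its own order across cell classes. Per1, the first of the period genes and one that also answers acute signals, was highest in neutrophil-like cells at 202 and 214 CPM in the DMSO libraries and 261 and 250 CPM in the BPTES libraries. The lowest of these 4 values lay above the highest value in the next class, non-classical monocyte-like cells, at 100 to 149 CPM. The 10 classes with the highest mean Per1 level were 9 leukocyte classes and the peribronchial fibroblast-like class. Alveolar fibroblast-like cells came next at 70.0 to 88.9 CPM, and every library of theirs lay above every library of smooth muscle-like cells. AT2-like cells, the surfactant-making cells of the alveolus, had the lowest mean at 31.8 ± 5.37 CPM (SD, n = 4 libraries). For thinned shares, cells with at least 3000 UMIs were thinned to 3000 and shallower cells were left out. That left out 133 of 2804 neutrophil-like and 2 of 1183 AT2-like cells. The thinned share of cells with a Per1 UMI was 48.4% to 57.8% in neutrophil-like and 7.6% to 11.5% in AT2-like cells. Unthinned it was 84.5% to 89.9% and 55.0% to 73.2%, at median depths of 9106 to 9956.5 and 43069.5 to 47298 UMIs per cell.

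Per2 and Per3 were highest in ciliated-like cells, the cells that move mucus along the airway. Per2 there was at 58.1 and 36.9 CPM with DMSO and 68.9 and 91.4 CPM with BPTES, and these values overlapped those of alveolar macrophage-like cells at 23.2 to 56.8 CPM. At the other end, Per2 was at 1.98 to 2.40 CPM in venous endothelial-like cells. Aerocyte endothelial-like cells, the gas-exchange capillary class, had a mean Per2 level of 20.4 CPM, against 2.25 CPM in general capillary endothelial-like cells. No neighbours in the order of Per2 were separated in all 4 libraries. Per3 in ciliated-like cells was at 39.7 to 58.1 CPM, and each of these values was above each library of the next class, AT2-like cells, at 17.2 to 18.7 CPM. Per3 was at 0.466 to 0.984 CPM in neutrophil-like cells, from 5 to 8 UMIs per library. The same neutrophil-like libraries held the highest Per1 level, so the mean of Per1 was highest and that of Per3 lowest in the same class. For Per3 this class was not separated in every library from classical monocyte-like cells, at a mean of 0.826 CPM.

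The cryptochromes, whose proteins repress CLOCK and ARNTL, differed from each other as well. Cry1 was at 42.2 to 62.3 CPM in ciliated-like and 40.8 to 49.7 CPM in B-like cells, which overlapped, and every B-like library lay above every pericyte-like library at 30.7 to 38.8 CPM. Cry2 split the classes by lineage. The 8 classes with the highest means were the epithelial, fibroblast and mural classes, from 116 CPM in ciliated-like to 43.6 CPM in peribronchial fibroblast-like cells. Their lowest, at 37.8 to 48.1 CPM, was separated in every library from B-like cells, the highest of the leukocyte and endothelial classes, at 17.9 to 20.4 CPM. Cry2 in neutrophil-like cells had the lowest mean, 6.82 CPM.

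The activators were lowest in neutrophil-like cells. Arntl was at 105 and 130 CPM (DMSO) and 113 and 88.0 CPM (BPTES) in alveolar fibroblast-like cells, which overlapped pericyte-like cells at 88.4 to 115 CPM. Neutrophil-like cells held 8.33, 10.2, 8.85 and 12.98 CPM in the same order of libraries, below each library of dendritic-like cells at 14.5 to 18.1 CPM. Clock had a mean of 185 CPM in pericyte-like and 175 CPM in alveolar fibroblast-like cells, and the 9 highest classes were mesenchymal and endothelial. Every venous endothelial-like library, at 122 to 140 CPM, lay above every library of adventitial fibroblast-like cells, at 96.9 to 117 CPM. Clock in neutrophil-like cells was at 22.7 to 31.3 CPM. The neutrophil-like class thus had the lowest mean of the 22 for Arntl, Clock, Nr1d2, Cry2 and Per3, and the highest for Per1. For Cry2 and Per3 it was not separated in every library from the next class. These were venous endothelial-like cells at a mean of 7.98 CPM for Cry2 and classical monocyte-like cells at 0.826 CPM for Per3.

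Nr1d1, the gene of REV-ERBα, had class means from 75.8 CPM in ciliated-like to 0.667 CPM in B-like cells. Ciliated-like cells held 87.6, 74.1, 73.4 and 67.9 CPM in DMSO replicates 1 and 2 and BPTES replicates 1 and 2, above every library of every other class. AT2-like cells followed at a mean of 43.4 ± 4.32 CPM (SD, n = 4 libraries) and alveolar fibroblast-like cells at 24.0 to 53.5 CPM. The B-like values rested on 14, 12, 8 and 3 UMIs. A Nr1d1 UMI was found in 0.48% to 1.00% of B-like cells and in 26.0% to 42.2% of alveolar fibroblast-like cells, at median depths of 11192.5 to 11975 and 18190 to 18973 UMIs per cell. Thinned to 3000 UMIs per cell, the shares were 0.07% to 0.30% and 6.03% to 12.4%. Shallower cells, 526 of 4357 B-like and 1307 of 12065 alveolar fibroblast-like, were left out of these thinned shares. The share in B-like cells is taken here as background, so no ratio to it is given, since free RNA gives cells of any type some UMIs of a gene. Neutrophil-like, dendritic-like and NK-like cells had mean Nr1d1 levels of 0.858, 0.874 and 1.21 CPM, close to that of B-like cells, and are read as background too. Nr1d2, the gene of REV-ERBβ, did not follow Nr1d1 into the leukocytes. T-like cells held 54.7 to 64.1 CPM of Nr1d2, NK-like cells a mean of 51.4 CPM and B-like cells a mean of 41.8 CPM, beside 61.0 CPM in alveolar fibroblast-like cells. The Nr1d2 level was lowest in neutrophil-like cells at 9.27 to 11.9 CPM, below each dendritic-like library.

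Dbp, a transcription factor gene that the clock drives and a common marker of its phase, was highest in ciliated-like cells at 13.7 to 32.2 CPM, above every library of lymphatic endothelial-like cells at 8.63 to 13.2 CPM. In alveolar fibroblast-like cells it was at 7.45 and 3.23 CPM with DMSO and 4.41 and 10.4 CPM with BPTES. Thus the 2 libraries of a group differed more than the group means did. At the low end, alveolar macrophage-like cells held 0, 1, 6 and 4 Dbp UMIs.

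**Figure D1:**
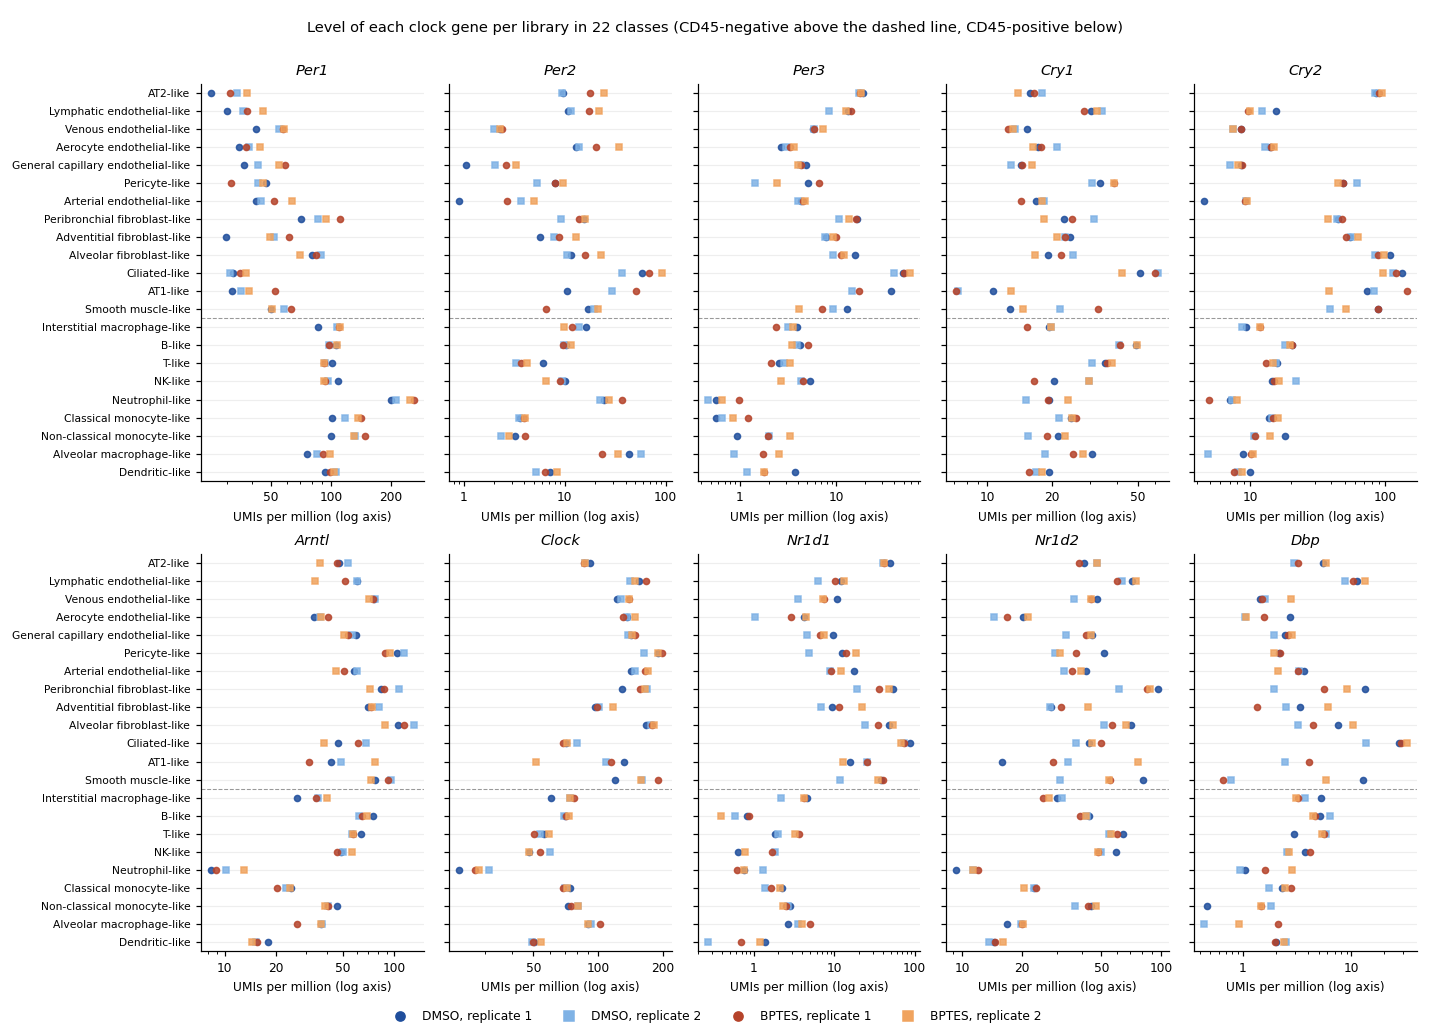
Level of the 10 clock genes in 22 classes, in CPM on a log axis, with 1 point per library and libraries at 0 not drawn. Nr1d1 runs from 75.8 CPM in ciliated-like to 0.667 CPM in B-like cells, while Per1 is highest and Arntl and Clock are lowest in neutrophil-like cells.

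The balance of the arms of the clock in each cell type of a library was summarised as a phase contrast. Within a class, log2(CPM + 1) of each gene was set relative to its mean over the 4 libraries. The mean over Per1, Per2, Per3, Nr1d1, Nr1d2 and Dbp (the E-box arm) minus the mean over Arntl, Clock and Cry1 (the RORE arm) gave 1 number per library. The arm names are labels only. They do not follow the promoter search, which found the RORE in Arntl alone and the E-box in Cry1 and Per1. A higher contrast means a higher E-box arm relative to the RORE arm on average, and single genes can differ from it. In arterial endothelial-like cells Nr1d1 stood highest in DMSO replicate 1 (0.57 above its mean on the log2 scale) and Dbp lowest in BPTES replicate 2 (-0.37), whose contrasts were -0.04 and 0.15. It has no test, since each class gives 1 value per library. In the sum over all cells the contrast was 0.02 and -0.31 in DMSO replicates 1 and 2 and 0.01 and 0.29 in BPTES replicates 1 and 2. DMSO replicate 2 stood lowest and BPTES replicate 2 highest, with 1 library of each group close to 0. In this sum the difference between the DMSO libraries was 0.33 and that between the group means 0.29. Over the 12 tested classes the group difference was above 0 in 11, at -0.07 to 0.50 (median 0.20). That difference uses the contrast known when the members were chosen. DMSO replicate 1 minus replicate 2 was above 0 in 7, at -0.37 to 0.75 (median 0.06). BPTES replicate 1 minus replicate 2 was above 0 in 5, at -0.61 to 0.31 (median -0.09). Replicate differences of opposite sign cancel in these medians, which therefore do not measure the spread between replicates.

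The libraries at the ends of the contrast differed between CD45-negative and CD45-positive classes. The share of cells in which Ptprc, which encodes CD45, was detected put a class in one compartment or the other. It was 6.09% to 13.2% in the 13 classes called CD45-negative and 90.7% to 100% in the 9 called CD45-positive. The split was chosen after the contrasts had been seen. DMSO replicate 2 was the lowest of the 4 libraries in 6 of the 7 tested CD45-negative classes, and in the other one, adventitial fibroblast-like, both DMSO libraries were at -0.23. BPTES replicate 2 was the highest in 7 of 7. Among the 5 tested CD45-positive classes, DMSO replicate 2 was lowest in 0 and BPTES replicate 2 highest in 0. BPTES replicate 1 was the highest there in 4 of 5, and BPTES replicate 2 was lowest in B-like and neutrophil-like cells. By library, the 7 CD45-negative classes lay between -0.23 and 0.21 in DMSO replicate 1, -0.54 and -0.14 in DMSO replicate 2, -0.14 and 0.08 in BPTES replicate 1 and 0.15 and 0.47 in BPTES replicate 2. The 5 CD45-positive classes lay between -0.28 and -0.02, -0.07 and 0.10, 0.06 and 0.20, and -0.13 and 0.04 in the same order. Thus the tested CD45-negative classes shared a sign in DMSO replicate 2 and BPTES replicate 2, and the tested CD45-positive classes in the other library of each group. Some of the latter values lay near 0 (-0.02 in DMSO replicate 1), and this sharing was not recomputed under other settings. Most untested CD45-positive classes did not share the signs of the tested ones. In DMSO replicate 1 and BPTES replicate 1, interstitial macrophage-like cells were at 0.34 and -0.05. In the same libraries NK-like cells were at 0.22 and 0.29 and dendritic-like cells at 0.04 and -0.01. Alveolar macrophage-like cells, at -0.51 and 0.26, did share them. Of the untested CD45-negative classes, only AT1-like cells, with 21 to 84 cells per library, did not follow. They were at 0.54 in DMSO replicate 2 and -1.29 in BPTES replicate 2. Over the 22 described classes, DMSO replicate 2 was lowest in 10 of 13 CD45-negative and 1 of 9 CD45-positive classes. BPTES replicate 2 was highest in 9 of 13 and 1 of 9.

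The size of the contrast also differed between the compartments. The range over the 4 libraries had a median of 0.68 in the tested CD45-negative classes (0.29 to 1.01) and 0.26 in the tested CD45-positive classes (0.16 to 0.43). Outside the tested classes the range was 0.76 in alveolar macrophage-like, 0.66 in NK-like, 0.51 in interstitial macrophage-like and 0.26 in dendritic-like cells, which are CD45-positive. It was widest among the tested classes in alveolar fibroblast-like cells, at 0.21 and -0.54 for DMSO and -0.14 and 0.47 for BPTES. In lymphatic endothelial-like cells the values were -0.11 and -0.39 for DMSO and 0.04 and 0.46 for BPTES. In AT2-like cells they were -0.10 and -0.27 against -0.05 and 0.42, and in ciliated-like cells 0.13 and -0.60 against 0.00 and 0.47. General capillary endothelial-like cells, the largest class, had the same libraries at the ends in a narrower range, at -0.08 and -0.14 for DMSO and 0.08 and 0.15 for BPTES. Classes of 1 library share its depth and its free RNA, and the CD45-positive classes have few UMIs of Nr1d1, Per3 and Dbp, and the part that counting error has in their values was not tested.

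**Figure D2:**
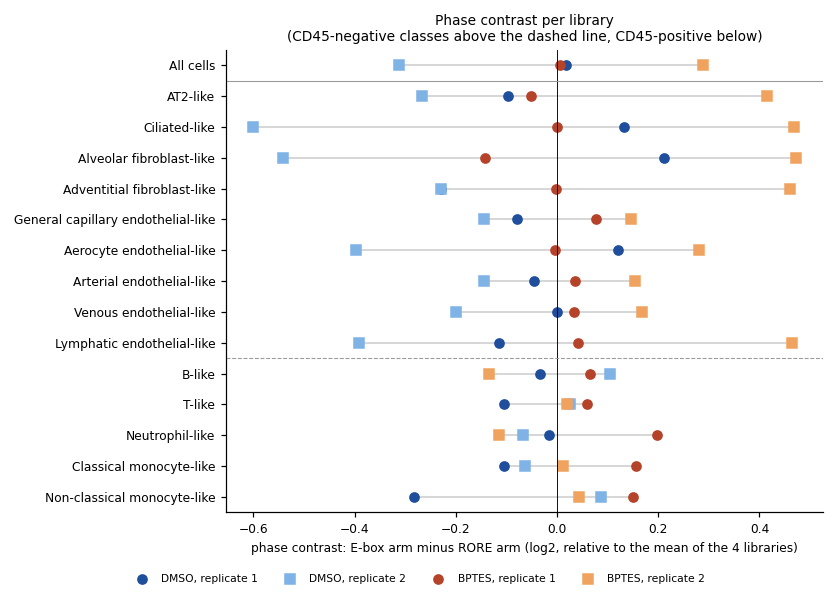
Phase contrast per library in the sum over all cells, the 12 tested classes and the AT2-like and ciliated-like classes, on a log2 scale relative to the mean of the 4 libraries. In the CD45-negative classes drawn, BPTES replicate 2 is the rightmost point and DMSO replicate 2 the leftmost or level with it. Neither holds in the CD45-positive classes drawn. With the classes not drawn included, BPTES replicate 2 was highest in 9 of 13 CD45-negative and 1 of 9 CD45-positive classes.

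Between the DMSO libraries, the member with the widest median difference in the CD45-negative classes was Nr1d1. Nr1d1 was higher in DMSO replicate 1 than in DMSO replicate 2 in 7 of 7 CD45-negative classes, by a median of 0.94 (0.39 to 1.41) on the log2(CPM + 1) scale. It was higher in 3 of 5 CD45-positive classes, by a median of 0.06. These 5 include B-like and neutrophil-like cells, whose Nr1d1 was read above as background (37 and 34 UMIs over the 4 libraries). In general capillary endothelial-like cells Nr1d1 was at 9.38 and 4.45 TMM-scaled CPM in the DMSO libraries and at 6.55 and 7.84 in the BPTES libraries. In alveolar fibroblast-like cells it was at 46.2 and 24.1 against 34.98 and 54.9. Both BPTES values lay above DMSO replicate 2, and DMSO replicate 1 lay within or above them, so the groups overlapped. Nr1d2 followed in 7 of 7 CD45-negative classes, with a median difference of 0.38 between the DMSO libraries, and in 3 of 5 CD45-positive classes. Dbp was higher in DMSO replicate 1 in 6 of 7 and 2 of 5.

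Per1 did not move with the REV-ERB genes between these 2 libraries. It was lower in DMSO replicate 1 than in replicate 2 in 7 of 7 CD45-negative classes, with a median difference of -0.23. Arntl in alveolar fibroblast-like cells was at 102 and 130 TMM-scaled CPM with DMSO and 114 and 90.4 with BPTES. This is the exact inverse of the order of Nr1d1. That full inversion was found in 1 of the 12 tested classes, and how often it would arise by chance was not tested. Between the BPTES libraries, Nr1d2 was higher in replicate 2 in 7 of 7 CD45-negative classes, Nr1d1 and Per2 in 6 of 7, and Arntl in 1 of 7. In general capillary endothelial-like cells, a cluster of higher Nr1d1 and Nr1d2 levels made up 31.8% of BPTES replicate 1 and 45.9% of replicate 2. Within it, Nr1d2 was at 51.5 and 49.2 CPM and Nr1d1 at 8.66 and 10.02 CPM, in that order. In the larger cluster, Nr1d2 was at 36.6 and 39.5 CPM and Nr1d1 at 5.399 and 4.895 CPM. Thus each gene changed direction between the clusters of that class.

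Over the 12 classes and 4 libraries, deviations from the class mean correlated at r = 0.76 between Nr1d1 and Nr1d2, 0.53 between Per1 and Per2 and 0.44 between Nr1d1 and Dbp (Pearson, 48 points). The most negative correlations of members were Per2 with Arntl (-0.36) and Per3 with Arntl (-0.33). Not all pairs followed the arms. Clock was positive with Per2 (0.38) and Per1 (0.33) of the other arm. Within an arm, Clock with Cry1 was at -0.29, Arntl with Clock at -0.01 and Per1 with Nr1d1 at -0.16. These are descriptions, because the 12 points of a library share its cells, depth and free RNA. Over the 10 genes, the difference between the DMSO libraries correlated positively in 21 of 21 pairs of CD45-negative classes (median r = 0.68) and in 4 of 10 pairs of CD45-positive classes (median r = -0.02). For the deviations within a single library, DMSO replicate 1 had 21 of 21 and 7 of 10 positive pairs (median r = 0.57 and 0.38) and DMSO replicate 2 had 21 of 21 and 4 of 10 (0.72 and -0.04). BPTES replicate 1 had 15 of 21 and 5 of 10 (0.12 and -0.02) and BPTES replicate 2 had 18 of 21 and 4 of 10 (0.49 and -0.06). The difference between the BPTES libraries was positively correlated in 16 of 21 (median r = 0.41) and 5 of 10 (median r = -0.10). Over all 66 pairs of the 12 classes, without the split, 37 and 35 were positive. Pairs of classes share the 2 libraries, and 10 genes stand behind each r.

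**Figure D3:**
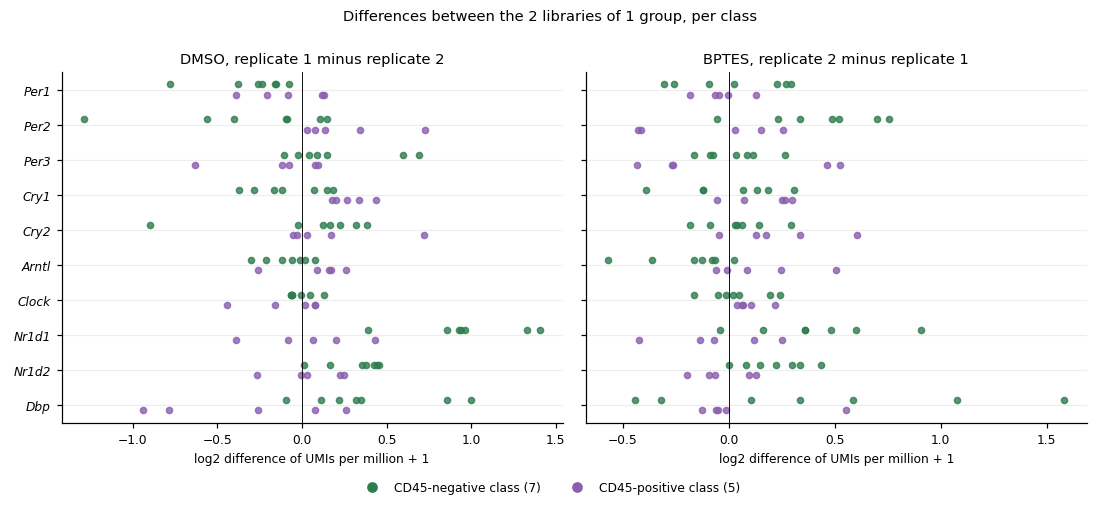
Difference between the 2 libraries of the DMSO group (left) and of the BPTES group (right) for each clock gene, on the log2(CPM + 1) scale, with 1 point per tested class. In the left panel the Nr1d1 and Nr1d2 points of the 7 CD45-negative classes lie right of 0 and the Per1 points lie left of it.

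BPTES was then set beside DMSO. The comparison sets treated beside vehicle lungs, and it is the one whose earlier results were known when the 10 genes were chosen. The hour of collection is not stated. A change by the inhibitor in these genes therefore cannot be told apart from a difference in that hour between the libraries. With edgeR's quasi-likelihood test on the counts summed per library, adjusted over all genes of a class (Benjamini-Hochberg), 0 of 118 pairs of clock gene and class were called at an adjusted p under 0.05. Per3 and Nr1d1 in neutrophil-like cells fell under the filter on low counts and were not tested. Over all genes, 123 of 154422 pairs were called, or 0.0797%. By class this was 0.17% of genes in alveolar fibroblast-like and 0.0932% in arterial endothelial-like cells. For the monocytes it was 0.172% in the classical class and 0.026% in the non-classical class. It was 0.0521% in aerocyte endothelial-like, 0.45% in lymphatic endothelial-like and 0.00733% in adventitial fibroblast-like cells. It was 0.0% in general capillary endothelial-like, B-like, T-like, neutrophil-like and venous endothelial-like cells and 0.0% in the sum over all cells. At an unadjusted p under 0.05, 15 member pairs were higher and 2 lower with BPTES, 14.4% together, against 13.1% of all pairs, 6.56% higher and 6.55% lower. DESeq2 called 2 member pairs at an adjusted p under 0.05, and 2160 of 128646 pairs of all genes (1.68%). Both BPTES libraries lay above both DMSO libraries in 40 member pairs (33.9%), against 22.8% of all pairs, and below in 9 (7.63%), against 22.7%. Because the choice of members used this contrast, these shares carry no weight of their own.

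Per2, a period gene, had a log2 fold change above 0 in 11 of the 12 tested classes, and edgeR called it in 0 of them. In alveolar fibroblast-like cells it was at 11.1 and 10.6 TMM-scaled CPM with DMSO and 15.9 and 23.3 with BPTES. In aerocyte endothelial-like cells it was at 12.7 and 13.7 against 20.2 and 35.6, and in lymphatic endothelial-like cells at 10.7 and 11.5 against 17.2 and 22.5. The groups did not overlap in these 3 classes, and BPTES replicate 2 was the highest library in each. General capillary endothelial-like cells had low levels of 1.03 and 1.99 against 2.64 and 3.45. The log2 fold change was 0.86 (SE 0.171) in alveolar fibroblast-like, 1.07 (SE 0.244) in aerocyte endothelial-like and 0.82 (SE 0.229) in lymphatic endothelial-like cells, with edgeR adjusted p of 0.0964, 0.155 and 0.168. Per2 was higher without overlap in 8 of 12 classes (against 22.8% of all pairs), 6 of 7 CD45-negative and 2 of 5 CD45-positive. Its median log2 fold change was 0.52. In T-like cells it was 6.09 and 3.29 against 3.71 and 4.35, a log2 fold change of -0.17. AT2-like cells, described here without a test, held 9.54 and 9.50 CPM with DMSO and 17.7 and 24.4 CPM with BPTES. Among the other untested classes, Per2 was also higher without overlap in ciliated-like and pericyte-like cells. It was lower without overlap in alveolar macrophage-like, interstitial macrophage-like and NK-like cells, and the groups overlapped in the rest. In alveolar macrophage-like cells its log2 deviations from the class mean were 0.20 and 0.59 with DMSO and -0.66 and -0.13 with BPTES. In the sum over all cells Per2 was at 8.55 and 7.84 against 11.3 and 15.4 (log2 fold change 0.71, SE 0.165, edgeR adjusted p = 0.208).

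Per1 was at 35.5 and 42.2 TMM-scaled CPM with DMSO and 58.7 and 57.8 with BPTES in general capillary endothelial-like cells. That is a log2 fold change of 0.58 (SE 0.093, edgeR adjusted p = 0.138). Both clusters that make up nearly all of that class had both BPTES libraries above both DMSO libraries, at 35.5 and 41.8 CPM against 56.5 and 56.6 in one, and 40.8 and 46.9 against 62.8 and 53.3 in the other. In classical monocyte-like cells Per1 was at 101 and 116 against 142 and 140 (log2 fold change 0.38, SE 0.087, edgeR adjusted p = 0.129). The groups were apart in 6 of 12 classes, all higher with BPTES (against 22.8% of all pairs of gene and class). They were not apart in alveolar fibroblast-like cells, at 77.4 and 89.1 against 84.1 and 71.9, nor in B-like or T-like cells. Per3 was higher without overlap in 6 of 11 classes, with fold changes of low counts, for example 0.566 and 0.649 against 1.23 and 0.870 in classical monocyte-like cells.

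The cryptochromes had no called difference. Cry1 log2 fold changes lay between -0.15 and 0.25 over the 12 classes. The highest was in general capillary endothelial-like cells, whose cluster of higher Cry1 level made up 17.6% and 23.6% of the class with DMSO and 31.8% and 45.9% with BPTES. Within that cluster Cry1 was at 20.3 and 19.1 CPM against 18.8 and 19.8, and in the larger cluster at 12.96 and 10.8 against 12.2 and 12.5, so the groups overlapped in both. Cry2 was at 15.5 and 12.3 TMM-scaled CPM with DMSO and 9.64 and 10.1 with BPTES in lymphatic endothelial-like cells, a log2 fold change of -0.50 (SE 0.248), the lowest of the 12 classes. The highest was 0.42 (SE 0.330) in arterial endothelial-like cells, at 4.50 and 9.21 against 9.11 and 9.81, where the groups overlapped.

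Among the activators, Arntl was lower without overlap in 4 of 12 classes (against 22.7% of all pairs) and higher in 1 (against 22.8%). In lymphatic endothelial-like cells it was at 60.4 and 59.9 against 50.9 and 34.8 (log2 fold change -0.47, SE 0.170, edgeR adjusted p = 0.293). Leaving out BPTES replicate 1 or 2 gave -0.79 or -0.24. In arterial endothelial-like cells it was at 57.0 and 59.3 against 50.3 and 46.8, a log2 fold change of -0.26 (SE 0.108), which was -0.52 at clustering resolutions of 0.5 and 2 and -0.42 with doublets kept. Clock was higher without overlap in 6 of 12 classes, at log2 fold changes from -0.05 to 0.25 over the 12. In arterial endothelial-like cells Clock was at 141 and 146 against 163 and 176 (log2 fold change 0.25, SE 0.094).

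The REV-ERB genes and Dbp mostly overlapped between the groups. Nr1d1 was apart in 3 of 11 classes, 2 higher and 1 lower (against 22.8% and 22.7% of all pairs). It was 9.43 and 6.76 against 11.4 and 22.3 in adventitial fibroblast-like cells (log2 fold change 1.08, SE 0.345, edgeR adjusted p = 0.440) and 1.78 and 1.95 against 3.63 and 3.30 in T-like cells. The value in adventitial fibroblast-like cells was 0.48 without BPTES replicate 2, and 0.52 and 0.66 at clustering resolutions of 0.5 and 2. Nr1d2 was higher without overlap in 2 of 12 classes. Dbp log2 fold changes ran from -0.43 to 1.09 over the 12 classes, on levels of a few CPM. For Nr1d1 the difference between the DMSO libraries, a median of 0.65 over the 12 classes, was larger than the difference between the group means, a median of 0.12.

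Some of these calls depend on the fit. DESeq2 called Per2 in alveolar fibroblast-like and Per1 in general capillary endothelial-like cells, with adjusted p of 0.000268 and 0.00041. Without BPTES replicate 1, edgeR called 5 member pairs, among them Per2 in alveolar fibroblast-like (log2 fold change 1.11) and aerocyte endothelial-like cells (1.43), and without DMSO replicate 2 it called 2. Without BPTES replicate 2 it called 0, and the log2 fold change of Per2 was 0.55 in alveolar fibroblast-like cells, 0.61 in aerocyte endothelial-like cells and 0.47 in the sum over all cells. Without DMSO replicate 1 it called 0. For Per2 in general capillary endothelial-like cells, leaving out DMSO replicate 1 or 2 gave 0.60 or 1.56 in place of 0.97. Of all pairs, edgeR called 1.71% without BPTES replicate 1 and 2.21% without DMSO replicate 2, 0.457% without BPTES replicate 2 and 0.433% without DMSO replicate 1. The class is not uniform either. In alveolar fibroblast-like cells, 1 cluster of low Per1 and Arntl levels (17.3 to 26.5 and 23.4 to 26.9 CPM) made up 14.8% and 19.96% of the class with DMSO and 24.8% and 27.3% with BPTES. In that cluster Per2 was at 4.32 and 1.72 CPM against 3.31 and 1.99, and in the largest cluster of the class at 11.7 and 11.8 against 16.2 and 28.8.

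**Figure D4:**
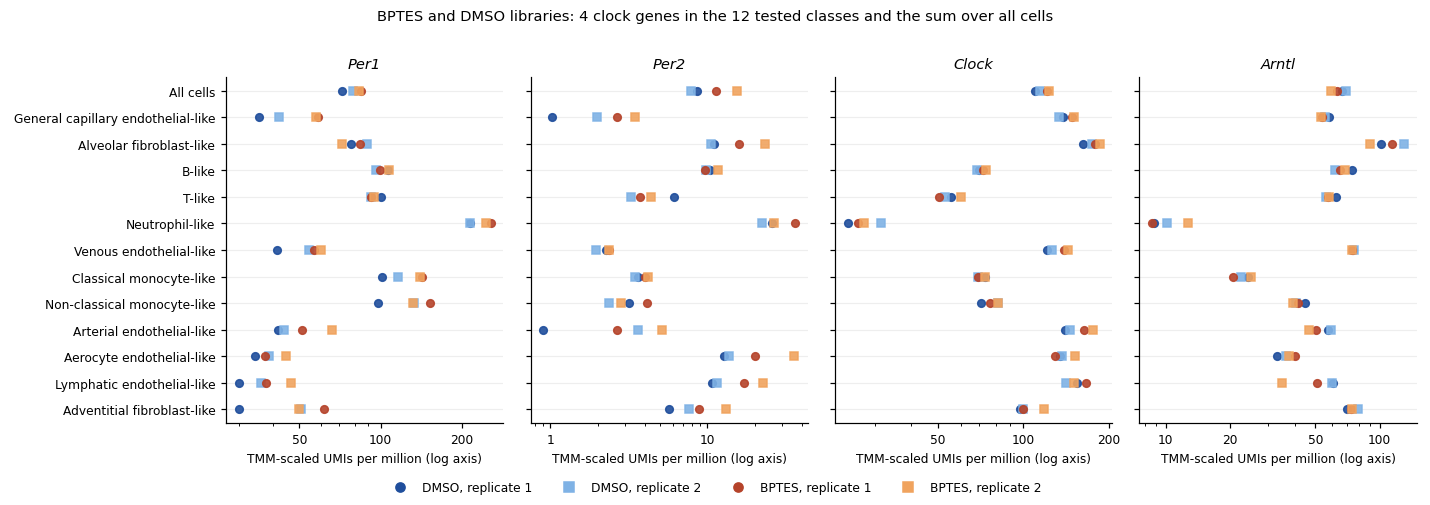
Per1, Per2, Clock and Arntl per library in the sum over all cells and the 12 tested classes, as TMM-scaled CPM on a log axis. Per2 in BPTES libraries lies above both DMSO libraries in 8 classes, and Arntl in BPTES libraries lies below both in 4. Over all genes, 22.8% of pairs of gene and class lie above and 22.7% below.

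**Figure D5:**
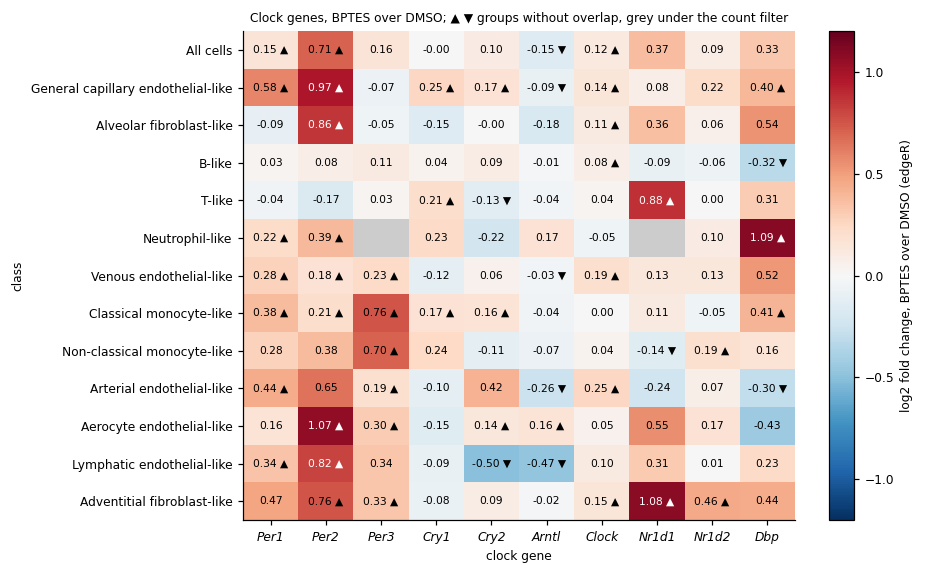
Log2 fold change of BPTES over DMSO from edgeR for the 10 clock genes in the sum over all cells and the 12 tested classes. Triangles mark groups whose libraries do not overlap, 40 upward and 9 downward over the 12 classes, and grey cells fell under the filter on low counts. Over all genes, 22.8% of pairs of gene and class were apart upward and 22.7% downward.

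Other genes of the clock showed no clear common direction. The list held 22 further clock and clock output genes, among them the ROR receptors, the PAR-bZIP factors Tef and Hlf and the repressors Nfil3, Bhlhe40, Bhlhe41 and Ciart. edgeR called 0 of 216 pairs at an adjusted p under 0.05, and 19 were higher and 11 lower at an unadjusted p under 0.05, 13.9% together against 13.1% of all pairs. Bhlhe40, a repressor induced by many signals, was at 57.7 and 57.6 TMM-scaled CPM with DMSO and 73.4 and 103 with BPTES in general capillary endothelial-like cells, and at 76.3 and 80.9 against 108 and 151 in arterial endothelial-like cells. In T-like cells it was at 250 and 243 against 213 and 190, so its groups were apart in opposite directions, a difference between classes that was not tested. Nfil3, which represses at D-boxes, was at 79.3 and 83.6 against 64.8 and 66.1 in alveolar fibroblast-like cells. Npas2, a partner of ARNTL like Clock, was at 47.0 and 46.0 against 40.2 and 31.7 in the sum over all cells. Of the 9 classes in which Npas2 was tested, it was lower without overlap in 4 (against 22.7% of all pairs) and higher in 2 (against 22.8%). Some of these levels were low, as in B-like cells at 0.761 and 0.920 against 0.549 and 0. In alveolar fibroblast-like cells the groups overlapped, at 93.4 and 120 against 98.3 and 56.2. Median log2 fold changes over the classes in which each was tested were 0.26 for Hlf, -0.04 for Ciart, -0.14 for Bhlhe41 and 0.05 for Rora, and Tef lay between -0.33 and 0.28.

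Genes that answer glucocorticoids and genes that answer tissue dissociation are given beside the members, and their part in the members' differences was not tested. Of 149 pairs of glucocorticoid-responsive gene and class, 61 were higher without overlap (40.9%, against 22.8% of all pairs) and 19 lower (12.8%, against 22.7%). At an unadjusted edgeR p under 0.05, 44 were higher (29.5%, against 6.56% of all pairs) and 16 lower (10.7%, against 6.55%). At an adjusted p under 0.05, edgeR called 2 higher and 0 lower, beside 0.0797% of all pairs called. Both calls were Tsc22d3, the gene of the glucocorticoid-induced leucine zipper GILZ. It was at 62.4 and 73.1 TMM-scaled CPM with DMSO and 115 and 115 with BPTES in classical monocyte-like cells (log2 fold change 0.77, SE 0.093, edgeR adjusted p = 0.0441). In aerocyte endothelial-like cells it was at 86.2 and 88.0 against 133 and 161 (log2 fold change 0.76, SE 0.099, edgeR adjusted p = 0.0463). Tsc22d3 was higher without overlap in 11 of 12 classes. The summed level of the 14 listed genes was highest in BPTES replicate 2 in 7 of 7 CD45-negative classes but lowest in BPTES replicate 1 in 6 of 7, so the BPTES libraries stood at opposite ends. In general capillary endothelial-like cells it was 1648 and 1639 CPM with DMSO and 1628 and 1896 CPM with BPTES. Of 13 alternatives, the Tsc22d3 call was lost in 5 in classical monocyte-like and in 3 in aerocyte endothelial-like cells. With doublets kept the adjusted p was 0.0517 and 0.0530 (edgeR), and the highest over the alternatives were 0.136 (without BPTES replicate 1) and 0.375 (without DMSO replicate 1).

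Immediate early and heat shock genes are known to rise while tissue is digested. Of 180 pairs of these genes and classes, 40 were higher (22.2%, against 22.8% of all pairs) and 64 lower without overlap (35.6%, against 22.7%). At an unadjusted edgeR p under 0.05, 36 were higher (20%, against 6.56% of all pairs) and 42 lower (23.3%, against 6.55%). Both directions thus exceeded the share over all pairs by that measure. Of the 180 pairs, edgeR called 0 higher and 2 lower at an adjusted p under 0.05, beside 0.0797% of all pairs called. These were Zfp36 in aerocyte endothelial-like cells (log2 fold change -0.50, SE 0.069, edgeR adjusted p = 0.0464) and Ier3 in lymphatic endothelial-like cells (log2 fold change -0.61, SE 0.117, edgeR adjusted p = 0.0468). The Zfp36 call was lost in 3 of 13 alternatives, with a highest edgeR adjusted p of 0.440 without DMSO replicate 1. The Ier3 call was lost in 5 of 13, and with doublets kept its log2 fold change was -0.16 (edgeR adjusted p = 0.649). Zfp36 encodes a protein that destabilises messenger RNA, and Ier3 is an immediate early gene. The summed level of the 15 genes was lowest in BPTES replicate 2 in 7 of 7 CD45-negative and 3 of 5 CD45-positive classes. In the sum over all cells it was 12110 and 10846 CPM with DMSO and 10404 and 9249 CPM with BPTES. Classical monocyte-like cells went the other way, at 5194 and 6288 CPM with DMSO and 8492 and 7259 CPM with BPTES. In non-classical monocyte-like cells the groups overlapped, at 5592 and 6069 against 6933 and 5903 CPM.

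Genes whose deviations were most like those of Dbp and Arntl were sought among 3163 genes with a mean of at least 20 CPM in each class. Of the members only Per1 and Clock passed that filter, and 6 of the 22 other clock genes did, so most clock genes could not be ranked. Over 48 points, 12 classes in 4 libraries, the 5 highest Pearson correlations with Dbp were those of Morc3 (0.50), Polr2k (0.49), Unc50 (0.48), Naa50 (0.47) and Atp2a2 (0.47). The 5 lowest were Cerk (-0.59), Ifrd1 (-0.58), Tor1a (-0.52), Dctn4 (-0.47) and Zmat5 (-0.46). For Arntl the highest were Tnpo1 (0.67), Zfc3h1 (0.64), Usp47 (0.64), Mbtd1 (0.60) and Pwwp2a (0.60), and the lowest Eif1b (-0.60), Polr2g (-0.57), Glrx2 (-0.53), Cct8 (-0.53) and Eif4g3 (-0.53). The points share libraries and depth, and Dbp rests on few UMIs in most classes, so these values are a description of these libraries.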

How the data were processed

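Single-cell RNA libraries were made with the 10x Genomics GEM-X 3′ kit from 4 lung samples, 2 per group. The deposited matrices hold whole-number UMI counts per gene and barcode, filtered by the authors with Cell Ranger 8.0.1 on mm10, per the submitters' processing notes. Barcodes under 500 genes, under 1000 UMIs or over 10% mitochondrial UMIs were removed. Doublets were scored against simulated pairs, and 0.4% per 1000 barcodes were removed. Counts were log-normalised to 10000 per cell, and 40 components of 2000 variable genes gave a 15-neighbour graph clustered with Leiden (igraph 0.11.9, resolution 1). Clusters were named from markers of 28 classes (score at least 1.5, at least 3 markers in 10% of cells). Counts summed per library and class were tested with edgeR 4.0.16 (TMM, filterByExpr, quasi-likelihood, two-sided, 2 against 2 libraries), with DESeq2 1.42.0 as an alternative in R 4.3.3. The edgeR step was run on simulated counts with known changes, drawn for genes above a minimum mean count and with a fixed dispersion. That run does not cover pairs of member and class with few UMIs. Library totals ranged from 260346570 to 342107092 UMIs. The members and lists were chosen with earlier results of these data known. Named genes were the 10 members, 8 further clock genes, up to 3 called genes per list and class, and the 5 most and least similar to Dbp and Arntl. AT2-like cells, with 1183 cells, fell just outside the 12 tested classes (the smallest tested had 1202).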

Additional observations from a re-analysis of the deposited data

Results flagged for a closer look

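Among the members, 4 clock genes had groups that were apart in opposite directions in 2 classes. The difference between the classes was not tested in any of them. Of all pairs of gene and class, 22.8% were apart higher and 22.7% apart lower with BPTES. How many other genes were apart in opposite directions was not counted. Cry2 was higher with BPTES in general capillary endothelial-like cells (log2 fold change 0.17) and lower in lymphatic endothelial-like cells (-0.50). In the capillary class a cluster of higher Cry2 level made up 17.6% and 23.6% of cells with DMSO and 31.8% and 45.9% with BPTES, and within each of its 2 main clusters the groups overlapped (7.88 and 6.67 CPM against 7.66 and 6.63, and 10.8 and 8.43 against 10.4 and 9.52). Arntl was higher in aerocyte endothelial-like cells (0.16) and lower in lymphatic endothelial-like cells (-0.47). Nr1d1 was higher in adventitial fibroblast-like cells (1.08, but 0.48 without BPTES replicate 2) and lower in non-classical monocyte-like cells (-0.14), where it rested on 12 to 29 UMIs per library. Dbp was higher in neutrophil-like cells (1.09), where it was at 0.933 to 2.75 TMM-scaled CPM, with 0.61 without BPTES replicate 2 and 0.67 with doublets kept, and lower in B-like cells (-0.32). These are the highest and lowest of the non-overlapping values of each gene, so they overstate its typical spread.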

How the results depend on the processing

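The count of member pairs called in the 12 classes was 0 with edgeR, and also 0 without TMM factors, with a limit of 5% mitochondrial UMIs, with doublets kept and at clustering resolutions of 0.5 and 2. It was 2 with DESeq2 and 9 with no filter on low counts, and leaving out 1 library gave 0 to 5. Over all genes, 123 pairs were called with edgeR, 2160 with DESeq2, 7379 with no filter, 247 and 396 at resolutions 0.5 and 2, 52 with doublets kept and 689 to 3504 with 1 library left out, so the further member calls came with many more calls elsewhere. In the sum over all cells the count of members was 0 with edgeR and 1 (Per2) with DESeq2, which called 1337 of 18204 genes there. With the replicate block, 3 member pairs (Per1 and Per2 in general capillary endothelial-like and Per2 in aerocyte endothelial-like cells) and 2704 pairs of all genes were called. The labels do not say that the numbers pair the libraries, and the data differ on it: same-numbered deviations correlated at 0.32 in general capillary and 0.13 in aerocyte endothelial-like cells, the classes of these calls, but from -0.17 to 0.07 in the other 10 and at -0.21 over all cells. The crossed pairing, chosen after seeing the data, called 3 member pairs and 1581 of all genes. The number of classes with a phase contrast above 0 in DMSO replicate 1 was 2. That number was 5 with log2(CPM + 5) and 4 with arms without Cry1 and Per1. In DMSO replicate 2 it was 3, but 1 with those arms. In BPTES replicate 1 it was 9, but 6 with those arms, and in BPTES replicate 2 it was 10, but 8 with log2(CPM + 5). The cause was not tested in any of these. The contrast of BPTES replicate 1 in the sum over all cells, which was near 0 (0.01), changed sign to -0.02 with those arms, and no other contrast in that sum and no member fold change that was recomputed under the alternatives did. Having 2 libraries per group and few UMIs of Dbp, Per3 and Nr1d1 in leukocytes limits the precision.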
